A study of Homo sapiens with 4 samples.

Results

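The HOX genes were examined as 38 listed members of the 4 human HOX clusters, out of 19970 protein-coding genes on chromosomes 1 to 22 and X. The list named 10 HOXA, 10 HOXB, 9 HOXC and 9 HOXD genes. The rule that chose them uses no measured value, but the list was drawn up with earlier results of these data known. Each member was read through the chromatin peaks that overlapped the gene or the 5 kb on either side of it on GRCh38. Peaks of the 4 libraries were merged into 128195 regions genome-wide, of which 90 lay in the windows of the members and 103 lay in the 4 cluster spans, counted from 5 kb before the first to 5 kb after the last member. A region with a peak in all 4 libraries is called a consensus region here; 53 of the 103 HOX regions were consensus regions, against 39.6% of all merged regions.

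The data were single-nucleus ATAC-seq of Panc1, an established line of human pancreatic ductal adenocarcinoma, grown in mice after transplantation. ATAC-seq reads open chromatin from the places where a transposase can cut DNA. Carrier libraries came from mice 12 and 31, which had received the vehicle, and Inflachromene libraries came from mice 11 and 35; inflachromene is a compound that targets the HMGB1 and HMGB2 chromatin proteins. All 4 libraries share the same cell line and the transplantation, while strain, sex, age, dose and length of treatment were not given in the sources used here. Each group held 2 mice and the line is a single model, so p-values cover only the spread between these mice. The first question, set by the files themselves, was which part of each cluster was open, and the second was whether inflachromene moved it.

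HOX genes encode homeodomain transcription factors that give cells their position along the body axis. In each cluster the genes stand in a row and are read in the same direction, and their order follows the order in which they act from head to tail: paralog groups with low numbers are the anterior end, and groups with high numbers the posterior end. Polycomb complexes hold silent HOX chromatin closed, the MLL (KMT2) and KDM6 enzymes work on the open side, CTCF marks boundaries inside the clusters, and the PBX and MEIS proteins bind DNA together with HOX proteins. HOX genes are often expressed out of place in tumours.

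The libraries held between 27088391 and 39947056 counts in 2039 to 5186 barcodes, and 75717 to 96240 peaks. Barcodes with at least 2000 counts, treated as nuclei, numbered 2070, 939, 1531 and 2060 in Carrier 12, Carrier 31, Inflachromene 11 and Inflachromene 35. Nuclei of the mouse host were not told apart and may be among these barcodes. Whether reads were aligned to GRCh38 alone or together with a mouse genome was not given in the sources used here. Carrier 12 and Inflachromene 11 shared 1209 barcode sequences, 23.3% and 29.7% of their barcodes, but only 10 of these were nuclei in both. Barcodes with more counts in another library held between 0.0407% and 0.988% of a library's counts, and removing them left every direction given below for a cluster unchanged. All 7 markers of Panc1 and carcinoma cells (among them KRT8, KRT19 and EPCAM) had a consensus region within 1 kb, as had 1 of 4 acinar markers, 0 of 4 endocrine, 3 of 5 fibroblast, 3 of 5 endothelial and 4 of 5 leukocyte markers.

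Levels are counts per 1000000 counts in consensus regions (CPM), divided by the length of the region or window in kb. The 4 clusters differed in level, and HOXB carried the highest. Levels were not corrected for DNA copy number, which may differ between the chromosomes of the 4 clusters. Its part in the differences between clusters was not tested. Over the whole span, consensus regions gave a mean of 3.92 CPM per kb in HOXB (chr17:48523526-48733750), 2.75 in HOXA (chr7:27095354-27205091), 2.72 in HOXC (chr12:53933831-54061030) and 1.06 in HOXD (chr2:176082487-176195907). In HOXB the 4 libraries ranged from 3.64 to 4.30, in HOXA from 2.66 to 2.89, in HOXC from 2.61 to 2.84 and in HOXD from 0.991 to 1.15. HOXB lay above and HOXD below the other clusters in every library, while the ranges of HOXA and HOXC overlapped. Length covered by peaks gave another order: peaks covered 13.2% ± 1.46 (SD, n = 4) of HOXA, 12.3% ± 0.253 of HOXB, 11.7% ± 1.84 of HOXC and 8.62% ± 0.692 of HOXD. HOXB thus had no more of its length in peaks than HOXA or HOXC beyond the spread, and its peaks were higher.

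**Figure D1:**
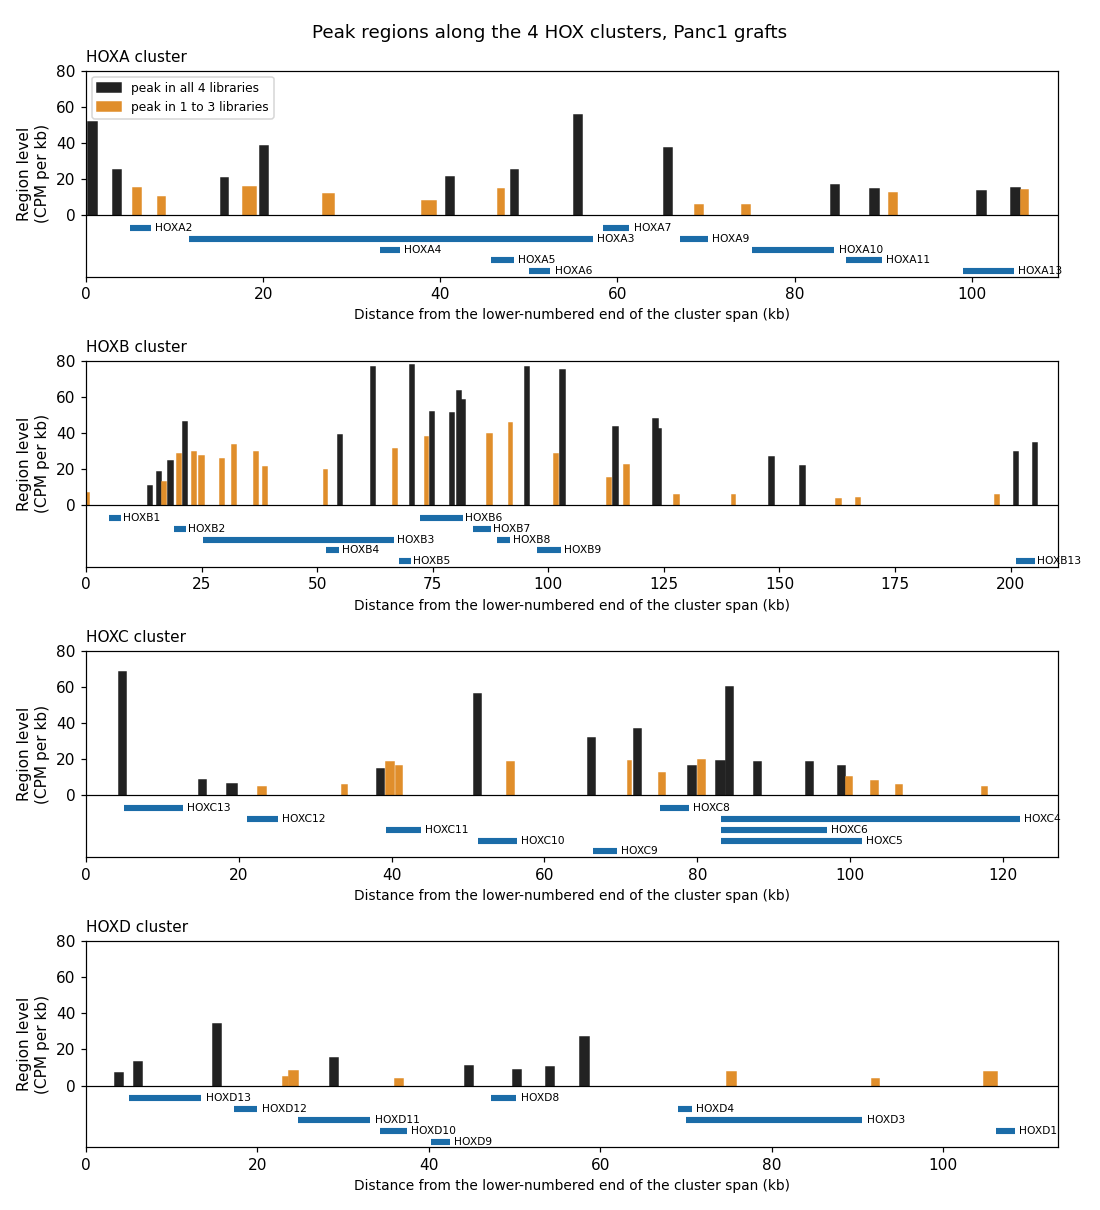
Regions along the 4 clusters, with the distance from the lower-numbered end of each span in kb on the x axis and the mean level over the libraries with a peak, in CPM per kb, on the y axis; black bars have a peak in all 4 libraries, orange bars in 1 to 3, and blue lines under the axis are the members. The highest bars stand between HOXB3 and HOXB9, and the HOXD1 to HOXD4 end has orange bars only.

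In the windows of the members, 33 of 38 (86.8%) held a consensus region, against 79.3% of all protein-coding genes, and all 38 held a region of any library, against 87.6%; each of the 38 had 1 with peaks in at least 2 libraries. Inside the gene bodies alone the order turned, with 22 of 38 members (57.9%) against 73.2% of all genes. A shorter gene body offers less room for a region, and the comparison was not corrected for gene length. The 5 members without a consensus region were HOXA4, HOXB1, HOXD1, HOXD3 and HOXD4. All 5 belong to paralog groups 1 to 4, of which the list holds 11 genes; none of the 11 genes of groups 5 to 8 and none of the 16 of groups 9 to 13 lacked one. HOXA4 lay within a stretch of 9.9 kb without a peak in any library, HOXB1 within one of 12.6 kb, and HOXD4, with the microRNA gene MIR10B, within one of 16.1 kb. HOXD3 had 2 regions, in 3 libraries and in 1, and HOXD1 a single region with a peak in Carrier 31 and Inflachromene 11. The longest stretch without a peak was 29.2 kb, between HOXB9 and HOXB13, where no member lies.

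How often the start of a gene lay in open chromatin varied by cluster. The outermost 5′ end lay in a consensus region in 15 of 38 members (39.5%), against 56.9% of 15811 protein-coding genes whose strand is known. HOXC had 6 of 9 (HOXC4, HOXC5 and HOXC6, which share an outermost start, and HOXC9, HOXC10 and HOXC13), HOXB 6 of 10 (HOXB2, HOXB4, HOXB5, HOXB6, HOXB9 and HOXB13), HOXA 3 of 10 (HOXA5, HOXA10 and HOXA13) and HOXD 0 of 9. A peak in 1 to 3 libraries covered the start of HOXB3, HOXB7, HOXB8, HOXC8, HOXC11 and HOXD1, and the other 17 starts had none. The far end of the gene lay in a consensus region in 3 of 38 members (HOXB13, HOXC8 and HOXD8), against 3.86% of genes. HOX genes have several start sites, and only the outermost was read here. Strands came from RefSeq promoter entries, and a member without one was given the strand that all entries of its cluster share.

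RefSeq's promoter table (GRCh38, 250 bases before to 50 after a start) has 26 distinct windows for 20 of the 38 members; 17 of those members lie in HOXA and HOXD, so the table says little on HOXB and HOXC. Of these windows 4 (15.4%) overlapped a consensus region and are called open, against 44.4% of 34789 windows genome-wide. In all, 10 of 26 overlapped a region of any library, some only in part. HOX windows held a median of 22.5 CpG dinucleotides, against 14 in all windows and 27 in all open windows. The 7 windows below are shown because they set open beside closed HOX promoters; each is on the strand of its gene, 5′ to 3′, with every CpG in capitals except in the last. The first 3 were open: HOXA13 (chr7:27200042-27200341, minus strand, 44 CpG), an inner start of HOXA3 (chr7:27150901-27151200, minus strand, 29 CpG) and the start shared by HOXC4 and HOXC5 (chr12:54016638-54016937, plus strand, 15 CpG). The next 3 had no peak in any library: HOXD8 (chr2:176129455-176129754, plus strand, 34 CpG), HOXA7 (chr7:27156626-27156925, minus strand, 31 CpG) and HOXA4 (chr7:27130708-27131007, minus strand, 27 CpG). The last, HOXA10 (chr7:27179812-27180111, minus strand, 21 CpG), was open, and its capitals mark the match to the CTCF core.
HOXA13: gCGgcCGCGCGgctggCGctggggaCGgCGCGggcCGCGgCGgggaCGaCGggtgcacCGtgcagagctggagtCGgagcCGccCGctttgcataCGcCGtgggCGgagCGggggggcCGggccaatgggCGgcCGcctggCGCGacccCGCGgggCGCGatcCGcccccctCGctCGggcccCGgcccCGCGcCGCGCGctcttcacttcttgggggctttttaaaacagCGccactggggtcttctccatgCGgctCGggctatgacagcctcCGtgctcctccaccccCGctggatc
HOXA3: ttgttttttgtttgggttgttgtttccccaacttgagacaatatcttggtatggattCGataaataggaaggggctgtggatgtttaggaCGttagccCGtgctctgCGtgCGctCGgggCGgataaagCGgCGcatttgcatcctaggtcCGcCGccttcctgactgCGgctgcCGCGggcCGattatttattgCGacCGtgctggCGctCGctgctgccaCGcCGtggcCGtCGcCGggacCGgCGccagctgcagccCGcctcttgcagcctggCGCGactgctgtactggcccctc
HOXC4: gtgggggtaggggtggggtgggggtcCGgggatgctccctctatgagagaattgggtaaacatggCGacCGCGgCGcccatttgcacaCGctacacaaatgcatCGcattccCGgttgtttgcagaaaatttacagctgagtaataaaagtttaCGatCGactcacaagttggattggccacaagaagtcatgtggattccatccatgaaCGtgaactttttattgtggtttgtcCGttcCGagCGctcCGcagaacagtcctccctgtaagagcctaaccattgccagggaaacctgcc
HOXD8: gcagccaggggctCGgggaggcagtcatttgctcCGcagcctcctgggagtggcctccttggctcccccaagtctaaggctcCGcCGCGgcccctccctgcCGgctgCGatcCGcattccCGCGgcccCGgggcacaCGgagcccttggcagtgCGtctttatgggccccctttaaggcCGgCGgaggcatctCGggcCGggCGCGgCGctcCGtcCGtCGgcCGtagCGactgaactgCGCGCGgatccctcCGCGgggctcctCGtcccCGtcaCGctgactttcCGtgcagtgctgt
HOXA7: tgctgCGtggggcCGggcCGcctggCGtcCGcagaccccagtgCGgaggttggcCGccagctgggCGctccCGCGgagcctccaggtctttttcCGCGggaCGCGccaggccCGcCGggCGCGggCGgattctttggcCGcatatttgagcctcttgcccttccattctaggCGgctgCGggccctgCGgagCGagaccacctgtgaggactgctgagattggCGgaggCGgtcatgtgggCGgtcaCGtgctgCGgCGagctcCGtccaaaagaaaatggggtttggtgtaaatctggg
HOXA4: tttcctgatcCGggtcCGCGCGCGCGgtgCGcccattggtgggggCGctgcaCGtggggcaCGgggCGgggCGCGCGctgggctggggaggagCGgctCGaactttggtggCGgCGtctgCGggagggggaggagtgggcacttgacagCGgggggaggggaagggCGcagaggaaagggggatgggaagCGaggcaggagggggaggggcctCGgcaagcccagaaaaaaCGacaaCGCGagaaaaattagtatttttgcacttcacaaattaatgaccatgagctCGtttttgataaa
HOXA10: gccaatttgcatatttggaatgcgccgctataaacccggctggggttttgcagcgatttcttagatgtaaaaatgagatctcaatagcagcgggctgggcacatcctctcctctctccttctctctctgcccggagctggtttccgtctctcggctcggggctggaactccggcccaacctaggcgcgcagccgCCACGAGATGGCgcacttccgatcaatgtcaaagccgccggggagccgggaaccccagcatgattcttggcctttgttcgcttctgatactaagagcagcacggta

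The closed windows of HOXD8, HOXA7 and HOXA4 were as rich in CpG as the open windows genome-wide, and among HOX windows the medians were 25 CpG in the 4 open and 22.5 in the 22 others. Counts ran from 15 to 44 in the 4 open and from 0 to 36 in the 22 others. The 3 closed windows shown are thus from the CpG-rich part of those 22. The CTCF core motif, searched on both strands, matched 1 of 26 HOX windows (3.85%), that of HOXA10, and 2.42% of all windows. CCAAT on either strand stood in 17 of 26 (65.4%), against 34.6% of all windows, and in 3 of the 4 open ones. TGATNNAT, a HOX-PBX site, stood in 3 of 26 (11.5%) against 7.39%; TGANTCA, the AP-1 site, in 0 of 26 against 7.69%; TATAAA in 5 of 26 (19.2%) against 11.6%; and GGGCGG in 13 of 26 (50%) against 44.9%. A match is a run of letters, not a bound site.

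The middle of HOXB was the most open stretch of all. From the first base of HOXB5 to the last of HOXB9 it spans 35.1 kb, or 16.7% of the HOXB span, and its 7 consensus regions held 49.3% of the counts in HOXB consensus regions. Each of those 7 lay at or above 51.2 CPM per kb, while the median consensus region of the genome lay at 11.9. The highest HOX region, chr17:48593618-48594528, covered the start of HOXB5 and part of the antisense gene HOXB-AS3, and held 72.8 and 73.9 CPM in the Carrier libraries (mice 12 and 31) and 68.0 and 67.8 CPM in the Inflachromene libraries (mice 11 and 35), or 77.5 CPM per kb (96.6th percentile of consensus regions). The libraries differed little there, with both Carrier values above both Inflachromene values. The next 3 lay at 76.8 (chr17:48618415-48619372, 1784 bp from HOXB9), 76.7 (chr17:48585157-48586044, in the long HOXB3 transcript) and 74.8 CPM per kb (chr17:48626088-48627041, at the HOXB9 start).

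The 3 members with the highest level per kb of window were all HOXB genes. HOXB6, a trunk-level HOX gene, held 14.7, 14.3, 12.9 and 12.4 CPM per kb, in the order of mice 12, 31, 11 and 35 kept from here on, above 99.3% of genes with a consensus region. HOXB7, often raised in carcinomas, held 11.6, 11.2, 9.67 and 9.39, read through 3 consensus regions that all overlap HOXB6. HOXB9 held 10.8, 9.53, 8.10 and 9.75. In HOXB6 and HOXB7 both Carrier libraries were above both Inflachromene libraries, and in HOXB9 the groups overlapped. HOXB5 followed at 9.36 CPM per kb, HOXB2 at 7.59, HOXB8 at 5.68, HOXB3 at 4.26, HOXB13, known from prostate and hindgut, at 4.18, and HOXB4 at 2.77. The widest HOXB region lay 19838 bp from HOXB9 (chr17:48646196-48647223), with 48.3, 48.7, 48.0 and 50.5 CPM, and stood far from any member.

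HOXC was open at its posterior border and around HOXC8 to HOXC6. Its highest region (chr12:53938187-53939099, 68.3 CPM per kb) covered the start of HOXC13 and the antisense gene HOXC13-AS, with 60.7, 63.1, 60.7 and 64.8 CPM in the 4 libraries. The next were inside the HOXC4 to HOXC6 transcripts (chr12:54017586-54018503, 60.1) and at the HOXC10 start (chr12:53984649-53985522, 56.0). HOXC8, a trunk gene, held 9.83, 9.36, 8.61 and 9.26 CPM per kb. Of its 4 consensus regions only 1 overlaps the gene itself. Of a mean of 128 CPM in its window, 55.2 came from the region inside the HOXC4 to HOXC6 transcripts given above. The HOXC8 level is thus not separate from that of HOXC4 to HOXC6. HOXC6 held 6.65, 6.01, 5.52 and 5.82, and HOXC5 5.59, 5.05, 4.64 and 4.89; these 2 genes and HOXC4 hold the same 6 consensus regions, so they are 1 measurement divided by different lengths. HOXC12 (0.576) and HOXC11 (0.853), beside the long RNA HOTAIR, had the lowest levels from consensus regions. The HOXC11 value leaves out a region over its start (chr12:53973081-53974110), with 18.7, 19.7 and 18.7 CPM in Carrier 12, Carrier 31 and Inflachromene 35 and no listed peak in Inflachromene 11, and one with a peak in Carrier 31 alone (chr12:53974394-53975193, 12.8 CPM). The widest HOXC region, 1365 bp from HOXC12 (chr12:53952308-53953538), held 8.77, 6.39, 7.39 and 9.85 CPM, with peak lengths from 603 to 1043 bp.

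HOXA was open at the HOXA2 end and around HOXA6 and HOXA7, less so towards HOXA10 to HOXA13. Its highest region (chr7:27150453-27151338, 55.3 CPM per kb) lay at the inner HOXA3 start shown above, with 49.2, 50.4, 51.6 and 44.7 CPM. HOXA7 held 6.36, 6.43, 6.68 and 5.88 CPM per kb, HOXA2 6.06, 5.64, 6.17 and 5.77, and HOXA6 5.36, 5.96, 6.13 and 5.11. The groups overlapped in all 3. HOXA7 owed its level to 2 regions outside the gene, since the gene itself lay within 9.23 kb without a peak. HOXA10 (1.55 CPM per kb) and HOXA11 (2.12) hold the same 2 consensus regions, and HOXA13 stood at 1.71. The widest HOXA region (chr7:27133248-27134923, 1676 bp after merging) had peaks in 3 libraries, with 7.45, 14.5 and 16.5 CPM in Carrier 31, Inflachromene 11 and Inflachromene 35.

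HOXD was the least open cluster, and its 8 consensus regions lay from 634 bp outside HOXD13 to 7473 bp beyond HOXD8. HOXD13, the most posterior, held 2.94, 2.73, 2.67 and 2.82 CPM per kb, HOXD12 2.70, 2.43, 2.43 and 2.54, and HOXD8 2.30, 2.09, 2.20 and 1.94. The groups overlapped in each of the 3. The highest HOXD region lay between HOXD13 and HOXD12 (chr2:176097270-176098206, 34.2 CPM per kb), with 34.2, 30.8, 30.9 and 32.3 CPM. The next, at 26.8 CPM per kb, lay 7473 bp from HOXD8 (chr2:176140168-176141196), outside the window of any member. HOXD9 (0.805), HOXD10 (1.04) and HOXD11 (0.747) lay below the median gene, 1.13 CPM per kb. The windows of HOXD1 to HOXD4, 43.8 kb together, held 3 regions and no consensus region. The widest HOXD region, at the HOXD1 start (chr2:176187342-176188742), had peaks in Carrier 31 (13.04 CPM) and Inflachromene 11 (7.51 CPM).

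Levels were also summed by paralog group, where neighbouring windows overlap and classes share regions. Groups 5 to 8 stood at 9.84 CPM per kb in HOXB, 4.83 in HOXC and 4.74 in HOXA; in HOXD the 1 gene, HOXD8, gave 2.13. Groups 9 to 13 stood at 6.97 (HOXB), 2.88 (HOXC), 1.89 (HOXA) and 1.58 (HOXD), and groups 1 to 4 at 3.84 (HOXB), 3.41 (HOXA), 2.92 (HOXC, HOXC4 alone) and, with no consensus region, no value in HOXD. In HOXC all 6 consensus regions of HOXC4 are among the 7 of groups 5 to 8, in windows of 49.1 and 36.4 kb, and in HOXA 3 of the 4 consensus regions of groups 5 to 8 also lie in the HOXA3 window. Of the 33 members with a consensus region, 28 lay above the median gene, 22 at or above the 75th percentile and 12 at or above the 90th. The level is divided by the length of the gene and its flanks, so a long gene ranks lower for the same counts. HOXB7 and HOXA7 reached the 98.4th and 93.8th percentile with no consensus region inside the gene. HOXA2 (92.9), HOXB8 (92.3) and HOXA6 (92.2) also lay above the 90th percentile with none inside the gene.

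**Figure D2:**
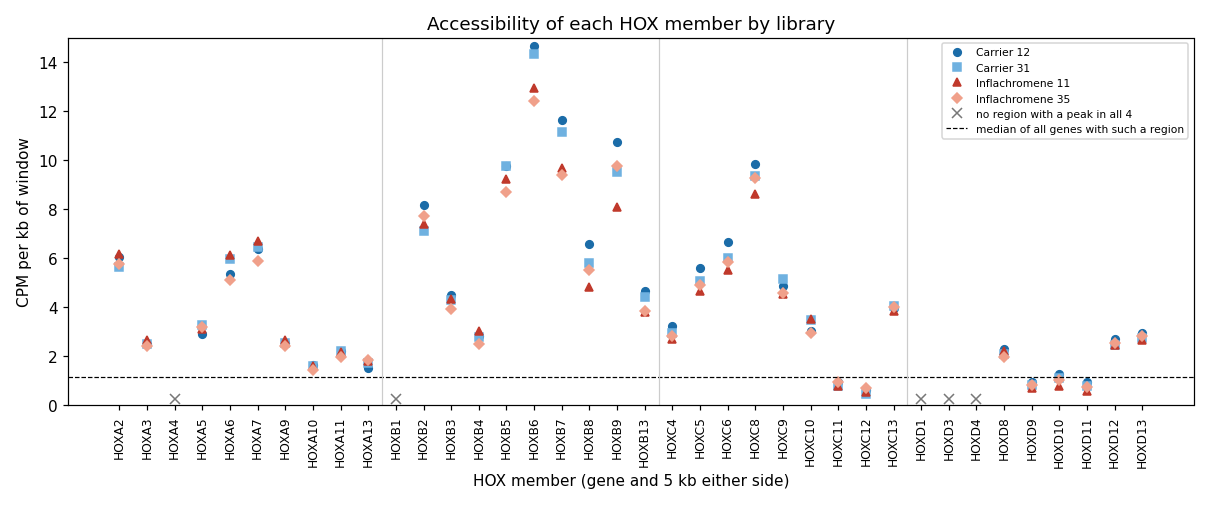
CPM per kb of window (y axis) for each HOX member (x axis, by cluster and paralog group), with 1 point for each of the 4 libraries, crosses for the 5 members without a consensus region and a dashed line at the median of all genes with one, 1.13. HOXB6 stands highest, between 12.4 and 14.7, and the 4 points of a member lie close together compared with the distance between members.

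Many HOX regions with a peak in only some libraries had high levels. Outside the clusters, 4.02% of the regions with a peak in only 1 to 3 libraries lay above the consensus median, at a median of 3.85 CPM per kb. In the HOX clusters 27 of 50 did (54%): 16 of 22 in HOXB, 5 of 10 in HOXA, 6 of 12 in HOXC and 0 of 6 in HOXD. In HOXB regions with a peak in 1, 2 and 3 libraries the medians were 25.6, 25.7 and 22.4 CPM per kb, and 44.8 with a peak in all 4. A region with no peak in a library has no count there, so how open it was in that library is not known. An example is the start of HOXB7 (chr17:48610289-48611251), with peaks in both Inflachromene libraries (41.6 and 34.8 CPM) and in neither Carrier library. The start of HOXB8 (chr17:48614924-48615747) had 46.7, 33.6 and 32.2 CPM in Carrier 12, Carrier 31 and Inflachromene 35 and no peak in Inflachromene 11. In all, 2 of 103 HOX regions (1.94%) had peaks in both Inflachromene libraries and no Carrier library, against 3.64% of all regions, and 3 (2.91%) the opposite, against 1.60%.

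**Figure D3:**
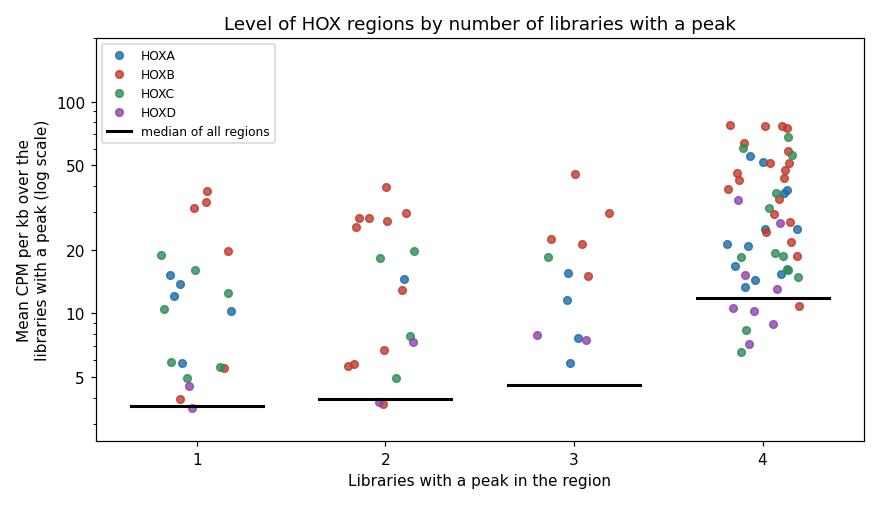
Level of each of the 103 HOX regions (y axis, mean CPM per kb over the libraries with a peak, log scale) by the number of libraries with a peak (x axis, points spread sideways for legibility), with colours for the clusters and black lines for the medians of all merged regions. HOX points with 1 to 3 libraries lie mostly above the black lines of 3.64, 3.96 and 4.57.

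The clusters also hold long antisense RNAs and microRNAs. Of 36 other genes in or beside the clusters, 27 had a consensus region and MIR10B had no region at all. HOXB-AS3, which runs against HOXB5 and HOXB6, had the highest level, with 13.8, 13.3, 12.1 and 11.4 CPM per kb, from regions it shares with those genes. HOTAIRM1, an RNA at the HOXA2 end known from myeloid cells, stood at 5.14, HOXB-AS1 at 4.98, HOXA-AS3 at 4.75, HOXC13-AS at 4.35, HOXC-AS3 at 4.23, HOXD-AS2 at 3.71, HOXC-AS1 at 2.81, HOXC-AS2 at 2.67, HOTTIP, beside HOXA13, at 2.60 and HOXA11-AS at 2.15. HOTAIR, a HOXC RNA, stood at 0.547. Most of these RNAs overlap HOX genes, so their regions are also those of members. Among neighbours outside the HOX rows, HNRNPA1 (8.64), PRAC2 (3.63), CBX5 (3.10), PRAC1 (2.46), CALCOCO1 (2.17), TTLL6 (1.70), SMUG1 (1.61), EVX2 (1.18), SKAP2 (0.694), HIBADH (0.656), LNPK (0.512), MTX2 (0.413) and SKAP1 (0.395) had consensus regions. EVX1, HOXA10-AS, HOXA-AS2, HAGLR, HAGLROS, MIR196A1, MIR196A2 and MIR196B had peaks in only some libraries.

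The microRNAs of the clusters are known to act on HOX transcripts. MIR196B (chr7:27169480-27169563) lay inside a region with peaks in 3 libraries at 5.86 CPM per kb, and MIR615 (chr12:54033950-54034045) lay partly inside one with a peak in Inflachromene 35 alone. MIR10A (chr17:48579838-48579947) lay 991 bp from a consensus region at HOXB4. MIR196A1, MIR196A2 and MIR10B lay 3655, 1882 and 6871 bp from the nearest region. Mature sequences from RefSeq are given 5′ to 3′ with the seed, bases 2 to 8, in capitals, to show that the 3 MIR196 genes of HOXA, HOXB and HOXC encode 5p products with 1 seed.
hsa-miR-196b-5p: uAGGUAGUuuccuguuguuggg
hsa-miR-196a-5p: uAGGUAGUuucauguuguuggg
hsa-miR-10a-5p: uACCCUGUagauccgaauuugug
Both MIR196A1 and MIR196A2 encode miR-196a-5p, and neither lay in a region, so the 1 member of this seed family within listed chromatin peaks was MIR196B.

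No HOX region or gene passed the test between Inflachromene and Carrier. With edgeR's quasi-likelihood test and Benjamini-Hochberg adjustment over 50771 consensus regions, 0 of 53 HOX regions passed at 0.05 (0% of all regions did), and the smallest adjusted p was 1.00 after rounding. At an unadjusted p under 0.05 there were 0 of 53 HOX regions, against 4.48% of all regions, and DESeq2 passed 0 of 53, against 0.0638% of all. Among 15830 genes, 0 of 33 HOX members passed (0% of all genes), 2 of 33 had an unadjusted p under 0.05, against 4.7%, and DESeq2 passed 0, against 0.0632%. The 95% intervals of the log2 fold changes reached from -0.85 to 0.87 over all 53 regions and from -0.87 to 0.82 over all 33 members. Each of these intervals thus lies within a 2-fold change either way, and 21 of the 53 region intervals lay within 0.5 on the log2 scale. Sums over a library cannot tell fewer open nuclei from fewer counts in each.

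**Figure D4:**
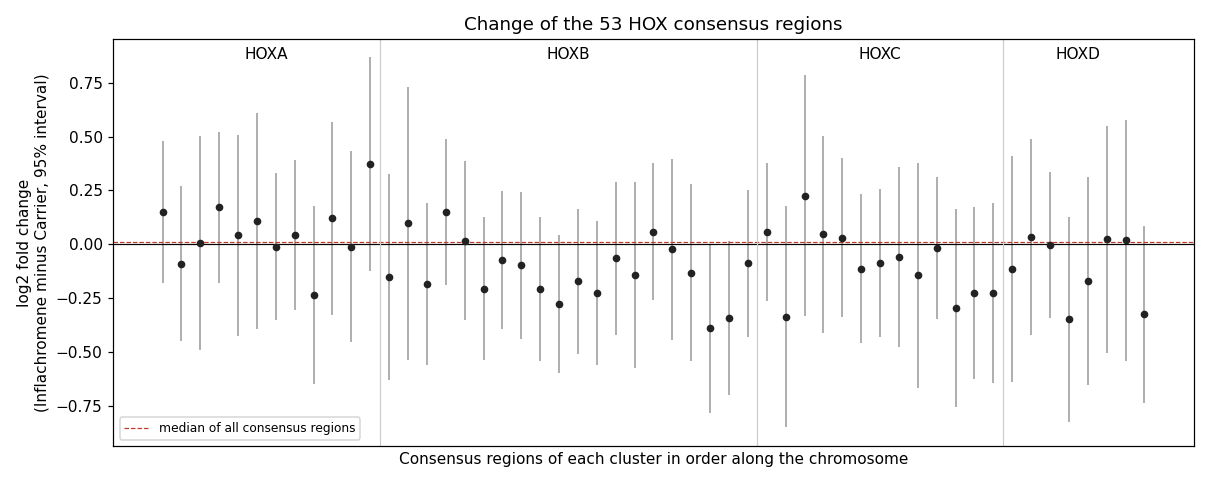
The log2 fold change, Inflachromene minus Carrier, of the 53 HOX consensus regions (y axis, points) with the 95% interval from edgeR (bars), in order along each cluster (x axis); the dashed red line is the median of all consensus regions, 0.01. The points lie between -0.39 and 0.37, 34 of 53 lie below 0, and every bar crosses 0.

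The direction of the small differences was mostly downward. The log2 fold change was below 0 in 34 of 53 regions (40 when scaled by total counts, where the median of all regions was -0.03), against 48.3% of all regions, with a median of -0.07 against 0.01, and in 25 of 33 members, against 48% of all genes, with a median of -0.08 against 0.01. Regions of 1 cluster lie side by side, and the 33 members hold only 29 distinct sets of regions. Both Carrier libraries were above both Inflachromene libraries in 21 of 53 regions (21.3% of all regions) and below them in 1 (11% of all). After scaling by the TMM factors, which lay between 0.975 and 1.03, these counts were 20 (17.5% of all) and 4 (14% of all). For members they were 14 of 33 lower (15.9% of all genes) and 1 higher (11.9%), and after scaling 11 lower (9.62%) and 1 higher (15.4%). By cluster, the log2 fold change was below 0 in 16 of 20 HOXB regions, 9 of 13 HOXC, 5 of 8 HOXD and 4 of 12 HOXA regions.

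Among HOXB genes, HOXB7 had the smallest p of all members. Its window held 160 and 154 CPM in Carrier 12 and 31 and 133 and 129 in Inflachromene 11 and 35, a log2 fold change of -0.24 ± 0.081 (SE, edgeR adjusted p = 0.986). The 2 groups did not overlap. HOXB13 held 65.2, 61.5, 53.2 and 53.9 CPM (-0.23 ± 0.090, edgeR adjusted p = 0.986). HOXB6 held 282, 276, 249 and 239 CPM (log2 fold change -0.18), and HOXB8 held 85.4, 75.2, 62.2 and 71.4 CPM (-0.25). In these 4 HOXB genes each Carrier value was above each Inflachromene value, yet none passed. The 3 consensus regions of HOXB7 all overlap HOXB6 and are also in the HOXB6 sum, so these 2 genes are not separate measurements. HOXB8 was read through 1 consensus region outside the gene, 1784 bp from HOXB9. The 2 peaks at the HOXB7 start listed only under Inflachromene are not in its sum; with regions of at least 2 libraries used and absent peaks set to 0, its log2 fold change was -0.08. HOXD10, whose sum is also that of HOXD11, held 16.9, 14.3, 10.2 and 13.6 CPM (-0.37 ± 0.22, edgeR adjusted p = 0.986). With 1 library left out HOXD10 ranged from -0.14 (without Inflachromene 11) to -0.65 (without Inflachromene 35), and HOXB8 from -0.12 to -0.40 without the same libraries.

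In the other direction the values were smaller against their errors. HOXA13 held 23.7, 26.99, 28.0 and 28.6 CPM (log2 fold change 0.18 ± 0.12, edgeR adjusted p = 0.995), and its groups did not overlap. HOXC12 held 8.77, 6.39, 7.39 and 9.85 CPM (0.21 ± 0.26). HOXA5 (36.4, 41.1, 39.3 and 40.3 CPM), HOXA2 (74.7, 69.6, 76.1 and 71.1) and HOXA3 (139, 138, 148 and 133) had log2 fold changes of 0.06, 0.04 and 0.03. The groups of these 4 genes overlapped, and the log2 fold change of each of the 4 changed sign in at least 1 alternative analysis.

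Single regions followed the same order. The smallest p was that of a region between HOXB9 and HOXB13 (chr17:48678070-48678969), with 23.6, 21.1, 16.1 and 17.1 CPM (log2 fold change -0.39 ± 0.18, edgeR adjusted p = 1.00). A region at the far end of HOXB13 (chr17:48724254-48725157), also in PRAC2 and within 5 kb of PRAC1, held 30.1, 29.8, 23.5 and 22.6 CPM (-0.34). A region in HOXB6 (chr17:48603845-48604608) held 52.8, 54.9, 43.4 and 43.1 CPM (-0.28). In HOXD, a region 7473 bp from HOXD8 (chr2:176140168-176141196) held 29.3, 32.9, 26.9 and 21.5 CPM (-0.33), and one in HOXD11 (chr2:176111000-176111904) 16.9, 14.3, 10.2 and 13.6 CPM (-0.35). In all 5 the groups did not overlap. The size of the HOXD values moved with single libraries: the region near HOXD8 ranged from -0.17 (without Inflachromene 35) to -0.51 (without Inflachromene 11), and the one in HOXD11 from -0.17 (without Inflachromene 11) to -0.57 (without Inflachromene 35).
On the higher side, the region over the HOXA13 start and HOTTIP held 10.8, 14.9, 16.8 and 15.7 CPM (chr7:27199845-27200794, 0.37 ± 0.22, edgeR adjusted p = 1.00), with both Inflachromene values above both Carrier values; it was 0.14 without Carrier 12 and 0.65 without Carrier 31. The groups overlapped in the other 4: a region in HOXA3 (chr7:27115008-27115905, 0.17), one in HOTAIRM1 (chr7:27095629-27096552, 0.15), the HOXB2 start (chr17:48544398-48545359, 0.15) and the region beside HOXC12 (0.23).

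Whole clusters differed little between the groups. The HOXB level averaged 4.14 ± 0.225 CPM per kb in the 2 Carrier libraries and 3.71 ± 0.0924 in the 2 Inflachromene libraries (SD, n = 2), a log2 difference of -0.16 with both Carrier values above both Inflachromene values (two-sided exact permutation p = 0.333, the smallest that 2 against 2 can give). HOXC (2.81 ± 0.0448 and 2.63 ± 0.0386, -0.09) and HOXD (1.12 ± 0.0345 and 1.00 ± 0.0153, -0.17) had the same order and the same exact p. HOXA did not (2.73 ± 0.0207 and 2.77 ± 0.168, 0.02, exact permutation p = 1). With 4 clusters tested the design cannot reach 0.05. The other consensus regions within the 10 Mb window of each cluster differed by -0.07 at HOXB, 0.01 at HOXC, 0.01 at HOXD and -0.06 at HOXA. Summed levels of some marker lists also stood apart by group: carcinoma markers 313 to 322 CPM under Carrier and 338 to 341 under Inflachromene, fibroblast markers 153 to 160 and 144 to 146, and acinar markers, by CELA3A alone, 4.14 to 5.09 and 2.39 to 2.68; DCN, LUM, PRSS1, CPA1 and PTF1A had no region. The endothelial sum was 119 to 131 and 107 to 138, and the leukocyte sum 62.6 to 81.8 and 69.3 to 83.2. Their part in the HOX differences was not tested.

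Per nucleus, HOXB was seen open most often. Each nucleus was thinned to 2000 counts, which left out the barcodes with fewer, 3116, 1100, 2536 and 1216 in Carrier 12, Carrier 31, Inflachromene 11 and Inflachromene 35. A count in a HOXB consensus region was then found in 75.7%, 69.9%, 68.4% and 69.8% of nuclei in the same order. HOXC gave 45.7%, 39.9%, 40.5% and 40.9%, HOXA 38.5%, 39.1%, 40.04% and 35%, and HOXD 19.3%, 16.3%, 15.5% and 17.0%. The clusters kept the order HOXB, then HOXA and HOXC, then HOXD in every library, while Carrier and Inflachromene overlapped in HOXA, HOXC and HOXD (two-sided exact permutation p = 1, 1 and 0.667). In HOXB the lower Carrier share, 69.9%, stood just above the higher Inflachromene share, 69.8% (exact permutation p = 0.333). Thinned to 5000 counts, with 1965, 754, 1320 and 1879 nuclei, the groups did not overlap in any cluster: HOXA gave 66.4% and 66.0% against 65% and 63.3%, HOXB 94.96% and 94.6% against 92.7% and 91.9%, HOXC 70.9% and 72.3% against 68.6% and 69.2%, and HOXD 36.3% and 37.9% against 31.9% and 31.99%, Carrier first (exact permutation p = 0.333 in each). Whether the groups overlapped in HOXA, HOXC and HOXD thus depended on the depth and the nuclei kept. Unthinned, at median depths of 16317, 34064, 18278 and 20123 counts, the shares ranged from 90.5% to 97.0% for HOXB and for HOXD were 58.1% and 65.3% under Carrier and 52.3% and 54.6% under Inflachromene. A nucleus without a count is not shown to be closed at this depth. The clusters differ in length, and the shares were not corrected for that or for DNA copy number.

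**Figure D5:**
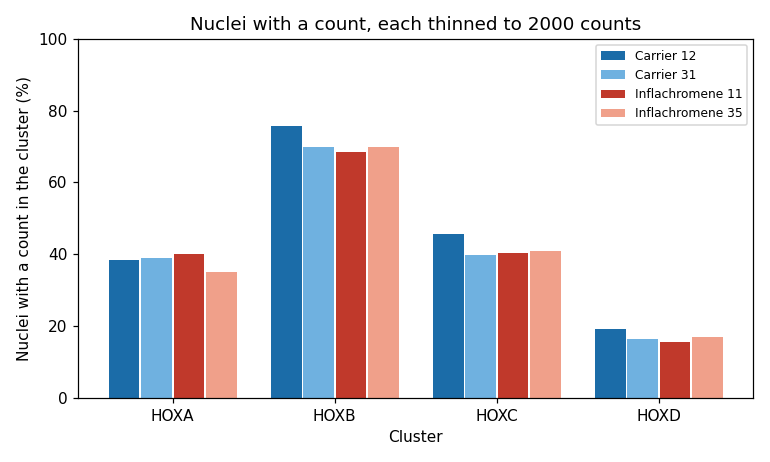
Share of nuclei (y axis, %) with at least 1 count in the consensus regions of each HOX cluster (x axis), with every nucleus thinned to 2000 counts and 1 bar for each library. HOXB bars stand between 68.4% and 75.7% and HOXD bars between 15.5% and 19.3% in both groups.

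Genes that work with or on HOX genes were read from a list of 36. Of these, 35 had a consensus region (CDX4, an activator of HOX genes in the embryo, had none), 0 passed edgeR's test in either direction, 17 lay above 0 and the median log2 fold change was -0.01, against 0.01 over all genes. The smallest p was at MEIS1, a HOX partner, with 9.70, 15.7, 20.1 and 18.8 CPM from 1 region (0.63 ± 0.22, edgeR adjusted p = 0.986). KDM6B, a demethylase of the Polycomb mark, held 422, 403, 455 and 485 CPM (0.20), EZH1, a Polycomb methyltransferase, 47.3, 43.6, 42.0 and 36.3 (-0.21) and PBX3, another HOX partner, 105, 106, 97.4 and 93.0 (-0.14). These 4 have the smallest p of the list, none passed, and their groups did not overlap; over the 35 genes this held for 5 lower and 3 higher, against 15.9% and 11.9% of all genes. Among neighbours, PRAC1, read through the region it shares with HOXB13, had a log2 fold change of -0.37 (edgeR adjusted p = 0.986), and no gene of that list passed either.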

How the data were processed

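Single-nucleus ATAC-seq was measured in 4 libraries, 2 Carrier and 2 Inflachromene, each from 1 mouse; groups follow the sample titles. Nuclei were isolated and libraries built with 10x reagents, per the labels' protocols. Cell Ranger ATAC 2.1.0 and Cell Ranger ARC are named, with GRCh38, in the submitters' processing notes; their settings were not given in the sources used here. The authors deposited, per library, a peak list and a matrix of raw counts (whole numbers) by peak and barcode. Between 82.4% and 84.9% of the entries above 0 are even, as when a fragment is counted once at each end; standard errors come from the spread between libraries, not from numbers of counts or barcodes. The members and the gene lists were chosen with earlier results of these data known.

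Peaks on chromosomes 1 to 22 and X were merged across libraries where they overlapped by 1 bp or more; counts of a library's own peaks were summed within each region, and a region without a peak has no count. Counts were summed over all barcodes. CPM is per 1000000 counts in consensus regions. Tests used edgeR 4.0.16 (R 4.3.3) with TMM factors, filterByExpr, which removed none, and the quasi-likelihood F test on 50771 consensus regions and on 15830 genes with a consensus region in the gene or 5 kb either side, with Benjamini-Hochberg adjustment over all features and a threshold of 0.05. DESeq2 1.42.0 was the other tool; its adjusted p was not available for some regions, which left 43880. On simulated data with the real means and library sizes, the same fit recovered 35 of 100 regions changed by 1 on the log2 scale and 2 of 100 changed by 0.5, and 100 and 39 of 100 genes. False calls were 1 region and 5 genes. The simulation gave all regions, or all genes, 1 common spread, so the rates on the real data may differ. Single values per library went into exact permutation tests (two-sided, over every split of the 4 libraries into 2 and 2). Named members and regions are the 3 highest of each cluster per kb, the widest region of each cluster, and up to 5 in each direction by smallest unadjusted p. Gene positions, strands, promoter windows and microRNA sequences are RefSeq's for GRCh38.p14; no genome sequence was used, so no sequence of a peak is shown. Nuclei were thinned to 2000 counts and, as an alternative, to 5000. No doublet caller was run.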

Additional observations from a re-analysis of the deposited data

How the results depend on the processing

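No HOX region or member passed in any alternative: other normalizations and filters, DESeq2, nuclei only, barcodes in place of counts, regions of at least 2 libraries, an offset by the 10 Mb window, another flank, each library left out, and, added after seeing the data, each barcode sequence kept in 1 library only. Calls over all regions were less stable: 0 with all 4 libraries, but 3180 without Inflachromene 11, 299 without Inflachromene 35, 5 without Carrier 31 and 0 without Carrier 12; over genes these were 499, 86, 0 and 0. With 1 library left out, the lone library of its group is assumed to vary like the other group. HOX members with an unadjusted p under 0.05, 2 of 33, were 0 without Carrier 12 and 9 without Inflachromene 35, and HOX regions, 0 of 53, were 2 without Inflachromene 11 and 5 without Inflachromene 35. No paired analysis was possible because the groups share no replicate number.

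The HOXA level difference, 0.02, was -0.0048 with barcodes in place of counts, -0.17 with all peaks of each library, and -0.041 to 0.083 with 1 library left out, the lowest without Inflachromene 11. HOXB, HOXC and HOXD kept their sign, but HOXB, -0.16, was -0.10 without Carrier 12, -0.090 with barcodes in place of counts and -0.087 relative to the 10 Mb window, and HOXC, -0.092, was -0.055 with TMM factors and -0.15 with all peaks. The shares of nuclei thinned to 2000 counts differed by -1.25 (HOXA), -3.71 (HOXB), -2.11 (HOXC) and -1.55 (HOXD) percentage points; thinned to 5000 these were -2.07, -2.51, -2.67 and -5.17, and unthinned -0.564, 0.988, -0.749 and -8.27. With regions of at least 2 libraries, HOXC12 turned to -0.54, HOXA5 to -0.32, HOXA3 to -0.11 and HOXB8 to 0.015, and HOXA2 was -0.010 with barcodes in place of counts. With 1 library left out HOXC12 ranged from -0.075 to 0.48, HOXA5 from -0.0084 to 0.12, HOXA2 from -0.034 to 0.12 HOXA3 from -0.0061 to 0.067 and HOXA13 from 0.11 to 0.25; of the regions higher under Inflachromene whose groups overlapped, the one in HOXA3 ranged from 0.082 to 0.25, that in HOTAIRM1 from 0.063 to 0.22, the HOXB2 start from 0.040 to 0.24 and the one beside HOXC12 from 0.0091 to 0.45. The cause was not tested. Bases covered in all 4 libraries were 8.69% of HOXA, 7.51% of HOXB, 7.77% of HOXC and 5.95% of HOXD, and in any library 19.4%, 17.6%, 17.4% and 11.9%. HOX consensus regions held at least 166 counts in each library, and their standard errors ran from 0.14 to 0.28 on the log2 scale.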
